A study of Mus musculus with 15 samples.

Results

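The response of the hippocampus of Tg2576 mice to docosahexaenoic acid (DHA) was measured by comparing 3 Tg2576 mice given DHA with 4 Tg2576 mice given vehicle. These 7 mice were taken by their genotype and treatment labels from the 15 mice of the study. The other mice were wild-type (WT) littermates, 4 with DHA and 4 with vehicle, and were used for the spread between mice and for the test of whether a response differed by genotype. Bulk RNA of the hippocampus was sequenced, and reads were counted per gene. Tg2576 mice, labelled Tg2576 +/+, express human amyloid precursor protein with the Swedish mutation from a prion protein promoter and form plaques with age, and WT mice were labelled Tg2576 -/-. All mice of the study were females of 18 to 20 months, so that the transgenic mice were treated at an age when plaques are present. DHA was given daily at 450 mg/kg for 5 weeks, and the vehicle, which all groups received, was sesame oil. The comparison asks which hippocampal transcripts follow DHA intake in the presence of the transgene.

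DHA is a long omega-3 fatty acid that is held in the phospholipids of neuronal and photoreceptor membranes. The liver and, to a lesser degree, astrocytes make it from shorter precursors with the desaturases Fads1 and Fads2 and the elongases of the Elovl family. As a free acid it can bind retinoid X receptors and peroxisome proliferator-activated receptors (PPAR), lower the processing of sterol regulatory element binding proteins (SREBP), and serve as the precursor of docosanoid mediators. Genes of these routes, of synapses, of glia and of amyloid handling were therefore described as lists beside the genes with the lowest p.

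The Tg2576 libraries held 25645977 to 33662464 counted reads with DHA and 17372864 to 30152880 with vehicle. App was at 2076 to 2787 CPM, the reads of a gene scaled to the size of its library, in the 7 Tg2576 mice and at 1572 to 1787 CPM in the WT mice, and the counts do not separate the human transgene from the mouse gene. Markers of dentate granule cells (545 to 642 CPM in sum), CA1 neurons (966 to 1273 CPM) and CA3 neurons (834 to 1085 CPM) were present in every Tg2576 mouse. The first principal components of the 7 Tg2576 mice, which held 27.1% and 23.2% of the variance of the 1000 most variable genes, did not separate DHA from vehicle. DHA mouse 1 was more like the vehicle mice (median Pearson r 0.977 across genes) than like the other DHA mice (0.973). Vehicle mice 1 and 2 were likewise more like DHA mice (0.975 and 0.980) than like their own group (0.969 and 0.972). Genes are not independent replicates, so these r values only describe the libraries. The share of all CPM in genes with an annotated length over 6000 bases was 36.9% in DHA mouse 1, against 42.8% and 42.4% in DHA mice 2 and 3 and 38.0% to 42.9% in the vehicle mice. Vehicle mouse 1 had the shallowest library of the Tg2576 mice and held 8.86 CPM of Trem2, a microglial receptor, against 33.3 to 41.6 CPM in the other vehicle mice. The calls that were lost without each of these 3 mice are named with the counts of genes, and the ranges of list medians are given where single mice moved them most.

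Of 19536 genes tested with edgeR's quasi-likelihood test, 69 had an unadjusted p under 0.01 (0.353% of genes tested), of which 31 were higher (0.159%) and 38 lower (0.195%) with DHA. These are the genes that are written below as having risen or fallen, which only labels the sign of genes at this p. The smallest adjusted p (Benjamini-Hochberg) was 0.999, so 0 genes had an adjusted p under 0.05, beside 618 genes with an unadjusted p under 0.05 (3.16%). The shares of 0.353% and 3.16% are below the fractions of 0.01 and 0.05 that these thresholds would pass if no gene differed. The counts are therefore no evidence of a response to DHA. DESeq2 and limma-voom also gave 0 genes with an adjusted p under 0.05. What follows describes the genes with the lowest p and how far their values depended on single mice. Without DHA mouse 1, 312 genes had a p under 0.01 and 33 of the 69 were among them. Without vehicle mouse 2 the numbers were 250 and 52, and without vehicle mouse 1 they were 122 and 27. Of the 30 genes named for their low p, 15 in each direction, 8 lost the call without DHA mouse 1, namely Grik3, Cdh20, Rn7sk, Mir6236, Lars2, Deptor, Cage1 and Jade3. Without vehicle mouse 1 it was lost by 13, namely Parm1, Cdh20, Rn7sk, Cdh10, Mir6236, Lars2, Tle4, Deptor, Dbndd2, Fbxo32, Lrrc8a, Sertad1 and Rnpepl1, and without vehicle mouse 2 by Pdzrn4, Cage1, Jade3 and Cd47. The other mice counted for as much, since 24 of the 30 lost the call without DHA mouse 2, 17 without DHA mouse 3, 15 without vehicle mouse 3 and 14 without vehicle mouse 4. The median log2 fold change was 1.19 among the genes that rose (range 0.23 to 3.63) and -0.69 among those that fell (range -3.36 to -0.28), against -0.0039 over all genes tested. Of the 69 genes, 46 were protein coding (18 higher and 28 lower), 21 were gene models with a clone name, and 18 had a mean under 1 CPM. A change over 2-fold was fitted for 32 of them, but only 14 of these had a mean of at least 1 CPM. The levels of the DHA and vehicle mice did not overlap for 50 of the 69 genes (20 higher and 30 lower), against 3.21% of all genes tested (1.69% higher and 1.52% lower). The same contrast chose the genes, so this share is a description. With 3 mice against 4, the smallest p of a two-sided exact permutation test is 0.0571, so this test cannot pass 0.05 for any gene.

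**Figure D1:**
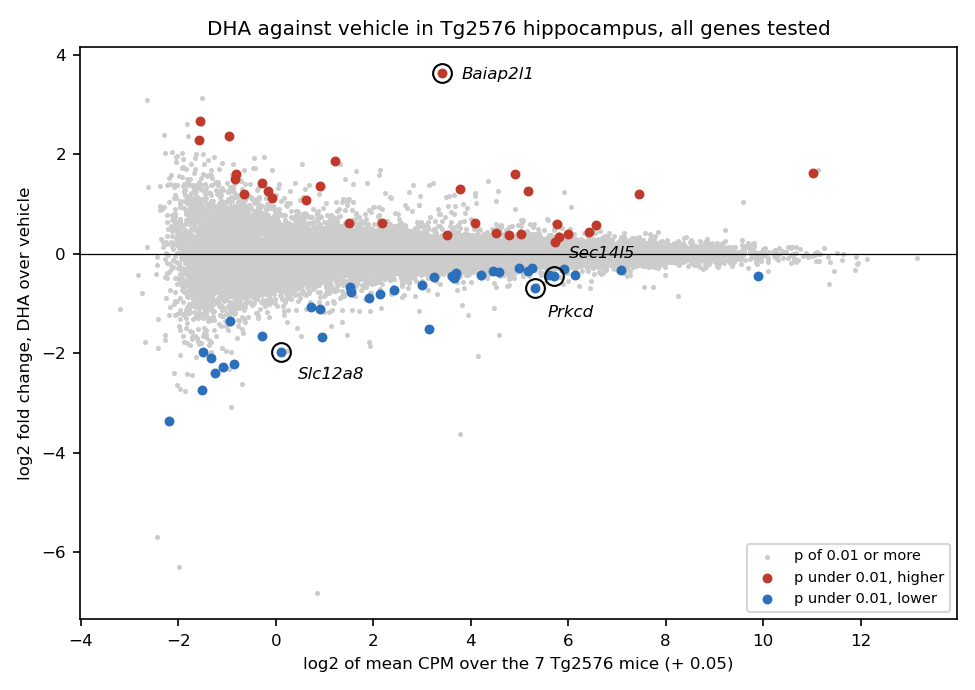
Log2 fold change of DHA over vehicle in Tg2576 mice (vertical axis) against the log2 of the mean CPM over the 7 mice plus 0.05 (horizontal axis) for all 19536 genes tested, with the 31 genes that rose in red and the 38 that fell in blue. The 4 circled genes kept a p under 0.01 when any 1 of the 7 mice was left out, and most of the large fold changes lie at low levels.

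The calls that were kept without each single mouse were a fall of Prkcd, Sec14l5 and Slc12a8 and a rise of Baiap2l1. These 4 genes kept a p under 0.01 without each of the 7 Tg2576 mice in turn, and Prkcd, Baiap2l1 and Sec14l5 kept it under all 16 alternative settings. Slc12a8 kept it under the 15 settings in which it was tested. These are also the 4 genes with the lowest p in the main fit, with which the refits share most of their mice. Keeping the call is therefore not independent of the low p. Of the other genes, 3 kept the call in 6 of the 7 fits that left out a mouse, 4 in 5 fits, 11 in 4 fits, 16 in 3 fits, 23 in 2 fits and 8 in 1 fit. The sequences upstream of Prkcd, Baiap2l1, Sec14l5 and Slc12a8 are shown so that their start regions can be read side by side. Each is the 250 bases before an annotated start, from RefSeq, in lower case from 5′ to 3′. RefSeq gives 2 promoters for Prkcd and 3 for Slc12a8, and promoter 1 of each is printed. Capitals mark an E-box (CACGTG), the site of basic helix-loop-helix factors such as the clock and MYC proteins.
Prkcd promoter, GRCm38.p6 chr14:30626209-30626458, minus strand: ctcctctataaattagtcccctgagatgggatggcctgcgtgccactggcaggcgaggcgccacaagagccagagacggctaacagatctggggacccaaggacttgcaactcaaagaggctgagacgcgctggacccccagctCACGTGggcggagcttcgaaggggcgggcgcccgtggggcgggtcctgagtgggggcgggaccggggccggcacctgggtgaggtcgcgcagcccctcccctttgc
Baiap2l1 promoter, GRCm38.p6 chr5:144358113-144358362, minus strand: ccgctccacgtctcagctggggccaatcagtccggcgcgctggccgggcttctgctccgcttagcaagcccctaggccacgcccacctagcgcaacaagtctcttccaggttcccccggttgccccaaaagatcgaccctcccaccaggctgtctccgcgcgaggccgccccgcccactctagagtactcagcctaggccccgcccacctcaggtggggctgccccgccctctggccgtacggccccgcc
Sec14l5 promoter, GRCm38.p6 chr16:5146859-5147108, plus strand: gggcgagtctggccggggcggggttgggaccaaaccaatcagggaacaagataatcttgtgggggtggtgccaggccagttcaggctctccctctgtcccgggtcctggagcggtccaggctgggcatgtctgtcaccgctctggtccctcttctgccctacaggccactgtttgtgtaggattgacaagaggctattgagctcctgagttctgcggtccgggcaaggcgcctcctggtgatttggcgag
Slc12a8 promoter, GRCm38.p6 chr16:33517078-33517327, plus strand: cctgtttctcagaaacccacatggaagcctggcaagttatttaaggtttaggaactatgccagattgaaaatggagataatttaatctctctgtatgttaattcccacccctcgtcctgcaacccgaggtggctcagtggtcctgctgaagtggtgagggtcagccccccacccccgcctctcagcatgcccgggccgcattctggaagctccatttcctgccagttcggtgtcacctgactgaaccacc
The E-box of Prkcd began 106 bases before the start, and the other 3 printed stretches held none. Promoter 2 of Prkcd (50.8% G and C) and promoters 2 and 3 of Slc12a8 (52% and 53.6%) held none either. In the printed stretches Baiap2l1 and Prkcd had G and C at 70.4% and 67.6% of bases, Sec14l5 at 61.6% and Slc12a8 at 53.2%. The median of all promoters of tested genes was 58.8%.

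Prkcd (ENSMUSG00000021948.17, GRCm38 chromosome 14, 30595354 to 30626210) encodes protein kinase C delta, a kinase activated by diacylglycerol that is highly expressed in thalamic neurons. It was at 28.7, 29.1 and 30.6 CPM in DHA mice 1, 2 and 3 and at 56.0, 42.6, 49.7 and 42.6 CPM in vehicle mice 1 to 4. The DHA mice lay close together and all below the lowest vehicle mouse. The log2 fold change was -0.69 ± 0.15 (standard error; adjusted p = 0.999), the lowest p of all genes that fell, and over all settings it ranged from -0.75 to -0.61. In WT mice Prkcd was at 36.4 to 51.2 CPM with DHA and at 38.9 to 61.5 CPM with vehicle, and the log2 fold change there was -0.14. The effects in the genotypes differed by -0.56, with an interaction p above 0.01. Among the 13 tested markers of thalamus and habenula, tissue that borders the hippocampus in dissection, Prkcd was the 1 gene that changed. Of these markers 8 were negative and 5 positive, with a median log2 fold change of -0.10. Zic1, another of them, named after its values were seen, had -1.04 ± 0.80 without passing. With Prkcd, the markers summed to 194 to 227 CPM in DHA mice and 198 to 257 CPM in vehicle mice. Without Prkcd the sums were 165 to 198 CPM and 155 to 202 CPM, so the groups overlapped either way. The part of dissection in the fall of Prkcd was not tested.

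Sec14l5, a member of the SEC14-like family of lipid-binding proteins, was at 43.6, 40.5 and 45.5 CPM in the DHA mice and at 69.8, 53.9, 56.9 and 56.1 CPM in the vehicle mice. Every DHA mouse was below every vehicle mouse, and vehicle mouse 1 was the highest. It fell with a log2 fold change of -0.45 ± 0.11, with a range of -0.50 to -0.37 over all settings. Slc12a8 (ENSMUSG00000035506.16, chromosome 16, 33517328 to 33664135), of the family of cation-chloride cotransporters, was near the lower limit of detection with 8 to 45 reads per mouse. Its levels were 0.288, 0.532 and 0.310 CPM with DHA and 2.16, 1.45, 1.42 and 1.06 CPM with vehicle. The groups did not overlap, and the log2 fold change was -1.97 ± 0.44. WT mice had 0.528 to 1.43 CPM of Slc12a8 with DHA and 0.842 to 1.89 CPM with vehicle, and the interaction was -1.72, with a p under 0.01.

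Baiap2l1 (ENSMUSG00000038859.7, chromosome 5, 144264526 to 144358112) encodes an I-BAR domain protein that bends the plasma membrane and binds actin. It had the largest rise among the 31 genes, from 1.76, 3.10, 1.03 and 1.26 CPM in the vehicle mice to 3.85, 37.5 and 26.1 CPM in the DHA mice. DHA mouse 1 was only slightly above vehicle mouse 2, while the other DHA mice were higher than every other mouse of the study. The fitted rise was 12.4-fold, a log2 fold change of 3.63 ± 0.79. It was lowest at 2.88 and highest at 4.13 over the settings. In WT mice Baiap2l1 stayed between 0.572 and 3.16 CPM with DHA and between 0.662 and 3.73 CPM with vehicle, and the interaction was 4.02 ± 1.08 (adjusted p = 0.845). Markers of the choroid plexus, the ventricular tissue that secretes cerebrospinal fluid, were high in all 3 DHA mice, with sums of 6538, 4283 and 4473 CPM. Such sums were also found in vehicle mouse 2 (4492 CPM), WT DHA mouse 3 (7117 CPM) and WT vehicle mice 1 and 3 (4206 and 4481 CPM), which held 3.10, 3.16, 3.73 and 2.64 CPM of Baiap2l1. The other 8 mice had sums of 224 to 1795 CPM and 0.572 to 1.76 CPM of the gene. DHA mouse 1, with the highest sum of the 7, had 3.85 CPM, and the part of choroid plexus in the rise was not tested.

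**Figure D2:**
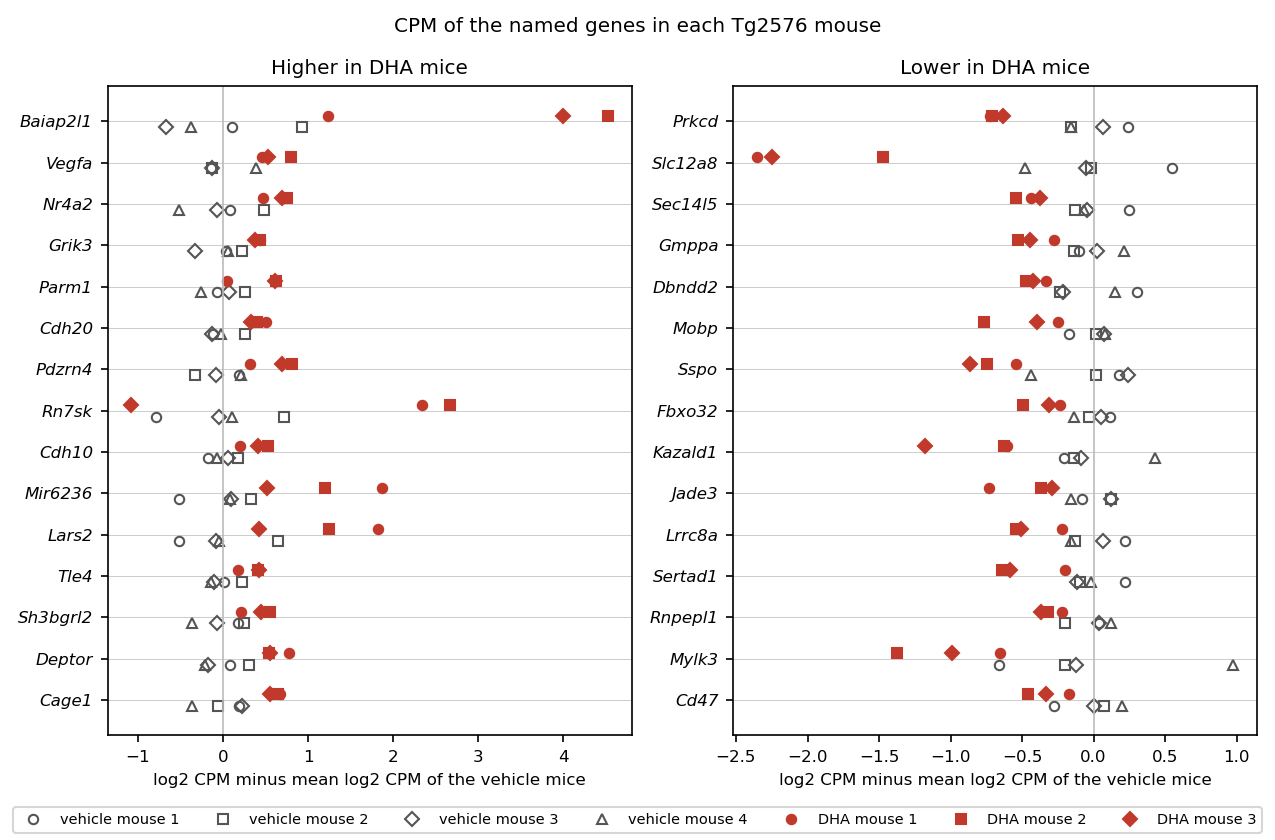
Level of the 15 named genes that rose (left) and the 15 that fell (right) in each Tg2576 mouse, as log2 CPM minus the mean log2 CPM of the vehicle mice, with vehicle mice as open and DHA mice as filled symbols. DHA mouse 3 lies below the vehicle mice for Rn7sk, and DHA mice 2 and 3 carry the rise of Baiap2l1.

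Among the other genes that rose were a vascular growth factor, transcription factors, a glutamate receptor and adhesion molecules. Vegfa, the main growth factor of blood vessels, was at 106, 134 and 111 CPM with DHA and at 69.7, 70.6, 70.4 and 101 CPM with vehicle. Vehicle mice 1 to 3 lay close together, and vehicle mouse 4 was close to the DHA mice. The log2 fold change was 0.58 ± 0.16, and the call was lost in 1 of the 7 fits that left out a mouse, that without DHA mouse 2. Nr4a2, an orphan nuclear receptor of dopaminergic and cortical neurons, was at 60.6, 73.5 and 70.3 CPM with DHA and 46.3, 61.2, 41.7 and 30.6 CPM with vehicle. DHA mouse 1 was below vehicle mouse 2, so the groups overlapped (exact permutation p = 0.114), and the log2 fold change was 0.60 ± 0.18. The related Nr4a3 had a log2 fold change of 0.38 and Nr4a1 one of -0.37, both without passing and both named after their values were seen.

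Grik3, which encodes a kainate receptor subunit, was at 74.7, 74.7 and 71.7 CPM in DHA mice and at 56.8, 64.7, 44.2 and 57.6 CPM in vehicle mice. The groups did not overlap, and the log2 fold change was 0.40 ± 0.13. The type II cadherins Cdh10 and Cdh20, which join neurons at contacts, rose together. Cdh10 was at 28.0, 35.1 and 32.4 CPM with DHA and 21.5, 27.4, 25.4 and 23.2 CPM with vehicle, and Cdh20 at 28.2, 26.3 and 25 CPM against 18.3, 23.7, 18.2 and 19.6 CPM. Neither gene overlapped between the groups (log2 fold changes 0.38 and 0.41). In WT mice both were slightly lower with DHA (-0.17 and -0.14), and the interactions were 0.55 for each gene, with a p under 0.01.

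Deptor, an inhibitor of mTOR kinase, was at 23.5, 19.9 and 20.2 CPM with DHA and at 14.5, 17.0, 12.1 and 11.9 CPM with vehicle, without overlap. The log2 fold change of Deptor was 0.61, but it kept its call in 1 of the 7 fits that left out a mouse. Tle4, a Groucho corepressor, was at 57.1, 67.3 and 67.6 CPM with DHA against 51.0, 58.8, 47.1 and 45.9 CPM with vehicle. It also marks subicular neurons. The remaining named genes that rose were Parm1, Pdzrn4, Sh3bgrl2 and Cage1, with log2 fold changes of 0.44, 0.61, 0.39 and 0.61. Of the 18 protein-coding genes that rose, Lrrn3, a leucine-rich repeat membrane protein of neurons named after its values were seen, had the smallest change. It was at 61.0, 56.8 and 55.3 CPM with DHA and 49.7, 51.2, 50.3 and 45.4 CPM with vehicle (0.23 ± 0.078).

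A group of 8 of the 31 genes that rose consisted of ribosomal, 7SK and short RNA genes together with Lars2 and Gm15564, grouped after their values were seen. The group holds a ribosomal RNA gene (CT010467.1), the 7SK RNA that holds the elongation factor P-TEFb in its inactive state (Rn7sk), 4 genes annotated as miRNAs (Mir6236, Gm23935, Gm24187 and Gm24270), an antisense gene (Gm15564) and the mitochondrial leucyl-tRNA synthetase gene (Lars2). The sequences of the 4 short genes are shown because several of them are nearly the same sequence, so that their counts may not be separate measurements. The first 3 are the full transcripts of GENCODE M21 on GRCm38, with capitals over the run of 46 bases that all 3 share. The last is the mature miRNA of Mir6236 from RefSeq, written as RNA with its seed (bases 2 to 8) in capitals.
Gm23935, GRCm38 chr16:11144125-11144181, plus strand: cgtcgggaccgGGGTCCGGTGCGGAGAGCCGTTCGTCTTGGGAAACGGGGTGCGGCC
Gm24187, GRCm38 chr13:9834469-9834525, minus strand: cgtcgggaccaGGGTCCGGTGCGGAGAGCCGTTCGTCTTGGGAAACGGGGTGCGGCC
Gm24270, GRCm38 chr9:56223715-56223771, minus strand: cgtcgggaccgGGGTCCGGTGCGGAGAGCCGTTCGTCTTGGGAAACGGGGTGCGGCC
mmu-miR-6236, GRCm38.p6 chr9:110281353-110281371, plus strand: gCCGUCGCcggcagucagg
Gm23935 and Gm24270 were identical over all 57 bases. Their levels nevertheless differed, at 73.5, 49.4 and 22.1 CPM against 0.972, 1.24 and 0.348 CPM in DHA mice 1, 2 and 3. How reads were divided between them was not tested. Lars2 and Gm15564 shared a run of 52 bases. The share of reads that belongs to each of these genes is therefore uncertain, and a poly(A)-selected or total RNA library is not made to measure a mature miRNA.

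The 8 genes summed to 5593, 4285 and 1502 CPM in DHA mice 1, 2 and 3 and to 990.1, 1690 and 1220 CPM in vehicle mice 1, 2 and 3, with 1147 CPM in vehicle mouse 4. DHA mice 1 and 2 were far above the vehicle mice, and DHA mouse 3 was below vehicle mouse 2. Rn7sk was at 4.97, 6.21 and 0.465 CPM in the DHA mice and at 0.568, 1.62, 0.945 and 1.06 CPM in the vehicle mice. DHA mice 1 and 2 were again the highest, but DHA mouse 3 had the lowest level of the 7. Lars2 was at 381, 254 and 144 CPM with DHA and at 75.2, 169, 101 and 104 CPM with vehicle. The fitted log2 fold changes of the 8 genes ran from 1.21 (Lars2) to 1.87 (Rn7sk). None of the 8 had a p under 0.01 without DHA mouse 1. In WT mice the sums were 4746, 3528, 2007 and 5297 CPM with DHA and 1477, 3706, 2127 and 2066 CPM with vehicle, which overlap. DHA mouse 1, with the highest sum of the Tg2576 mice, had the lowest share of CPM in long genes (36.9%), while DHA mouse 2 had 42.8%. The part of RNA quality in the rise was not tested.

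The genes that fell included genes of myelin, nucleotide sugar synthesis, ion channels, protein turnover and transcription. Mobp, an abundant protein of compact myelin, was at 909, 633 and 820 CPM with DHA and at 958, 1089, 1133 and 1141 CPM with vehicle. All DHA mice were below the vehicle mice, though DHA mouse 1 and vehicle mouse 1 lay close together. The log2 fold change was -0.46 ± 0.13, and without DHA mouse 2 Mobp did not pass. Gmppa, which regulates the making of GDP-mannose, was at 45.0, 37.8 and 40.0 CPM with DHA and at 51.0, 49.6, 55.5 and 63.3 CPM with vehicle (-0.42 ± 0.12). It too kept a p under 0.01 without each mouse except DHA mouse 2, as Vegfa and Mobp did.

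Fbxo32, the muscle ubiquitin ligase atrogin-1, was at 20.5, 17.1 and 19.4 CPM in DHA mice and at 26.1, 23.6, 24.9 and 22 CPM in vehicle mice. Sspo, the SCO-spondin secreted at the roof of the third ventricle, was at 4.32, 3.75 and 3.45 CPM against 7.10, 6.37, 7.43 and 4.63 CPM. Both genes were without overlap, and both fell in WT mice as well (log2 fold changes -0.49 and -0.75 there, -0.35 and -0.73 in Tg2576 mice). Lrrc8a, the required subunit of the volume-regulated anion channel, was at 17.6, 14.1 and 14.4 CPM with DHA and 23.9, 18.8, 21.4 and 18.4 CPM with vehicle. DHA mouse 1 came close to the lowest vehicle mouse, and the groups did not overlap. Cd47, the surface signal that restrains phagocytosis, was at 131, 107 and 118 CPM with DHA and at 122, 155, 148 and 169 CPM with vehicle. Here vehicle mouse 1 lay below DHA mouse 1, and the groups overlapped (exact permutation p = 0.114).

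The other named genes that fell were Dbndd2, Kazald1, Jade3, Sertad1, Rnpepl1 and Mylk3, with log2 fold changes of -0.43, -0.80, -0.46, -0.47, -0.30 and -1.12. Jade3 is a PHD-finger protein of a histone acetyltransferase complex, and Mylk3 is a myosin light chain kinase. Mylk3 was at 1.37, 0.827 and 1.08 CPM with DHA and at 1.36, 1.87, 1.98 and 4.23 CPM with vehicle, so that the groups overlapped and 1 vehicle mouse was high. Among genes outside the naming rule, chosen after their values were seen, Nab2, a corepressor of EGR factors, was at 34.0, 34.6 and 33.7 CPM with DHA and 44.8, 39.4, 40.8 and 41.8 CPM with vehicle. Col6a3, a collagen of meninges and vessels, was at 4.97, 3.31 and 4.41 CPM with DHA and at 21.9, 15.7, 5.24 and 5.69 CPM with vehicle, and its fall came from vehicle mice 1 and 2.

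The start regions of the changed genes were searched on both strands for motifs of factors tied to DHA, lipids, activity or the clock, from 250 bases before to 50 bases after the start. A RefSeq promoter was matched for 13008 of the genes tested, among them 17 that rose and 26 that fell. The nuclear receptor half-site (AGGTCA) was found in 1 of 17 and 3 of 26 genes, where 15.2% of all genes held it. The 3 genes that fell were Sec14l5, Sspo and Stx2, and in Sec14l5 the match lay outside the 250 bases printed above. The E-box (CACGTG) was found in 2 of 17 and 2 of 26 genes, against 10.9% of all, and the cAMP response element (TGACGTCA) in 0 of 17 and 2 of 26 genes, against 3.24%. No changed gene held the NBRE to which NR4A receptors bind (AAAGGTCA, which contains the half-site; 1.25% of all genes), the sterol element (TCACNCCAC; 1.38%) or 2 half-sites with 1 base between them (0.0538%). These counts are descriptions of the letters in the window.

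In WT mice given DHA, which share no mouse with the Tg2576 comparison, 43 of the 69 genes had the same sign as in Tg2576 mice, 22 of the 31 that rose and 21 of the 38 that fell. The median WT log2 fold change was 0.19 for the genes that rose, and -0.04 for those that fell, against -0.01 for all genes. In WT mice 7 of the 69 genes (10.1%) had a p under 0.01, where 1.38% of all genes did. Of these, 5 had the same sign in both genotypes and 2 the opposite sign. Both contrasts use the same estimate of each gene's spread from all 15 mice, so a low estimate favours a call in both. The share of 10.1% is thus not independent of the choice of genes either. The interaction of genotype and DHA had a p under 0.01 for 19 of the 69 genes, 4 that rose and 15 that fell, where 0.829% of all genes passed. The Tg2576 contrast chose these genes and is also a term of the interaction, so this share is not independent of the choice, and the smallest adjusted p of the interaction over all genes was 0.845.

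Lrrc8a, Cd47 and Sertad1, a transcriptional coregulator, were lower with DHA in Tg2576 mice and higher with DHA in WT mice. In WT mice Cd47 was at 139 to 171 CPM with DHA and 123 to 137 CPM with vehicle, with a log2 fold change of 0.26 and an interaction of -0.58. WT levels of Lrrc8a were 16.3 to 18.2 CPM with DHA and 12.2 to 16.6 CPM with vehicle (0.27), with an interaction of -0.69. For Sertad1 the WT change was 0.56, which passed in WT mice too, and the interaction was -1.02. All 3 interactions had a p under 0.01. Sertad1 was at 9.80 to 12.4 CPM in Tg2576 vehicle mice, 6.80 to 9.21 CPM in Tg2576 DHA mice and 6.0 to 7.16 CPM in WT vehicle mice. Gmppa, Jade3, Kazald1 and Rnpepl1 also had interactions at p under 0.01 (-0.51, -0.65, -1.06 and -0.39), with small positive WT changes of 0.09 to 0.26.

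**Figure D3:**
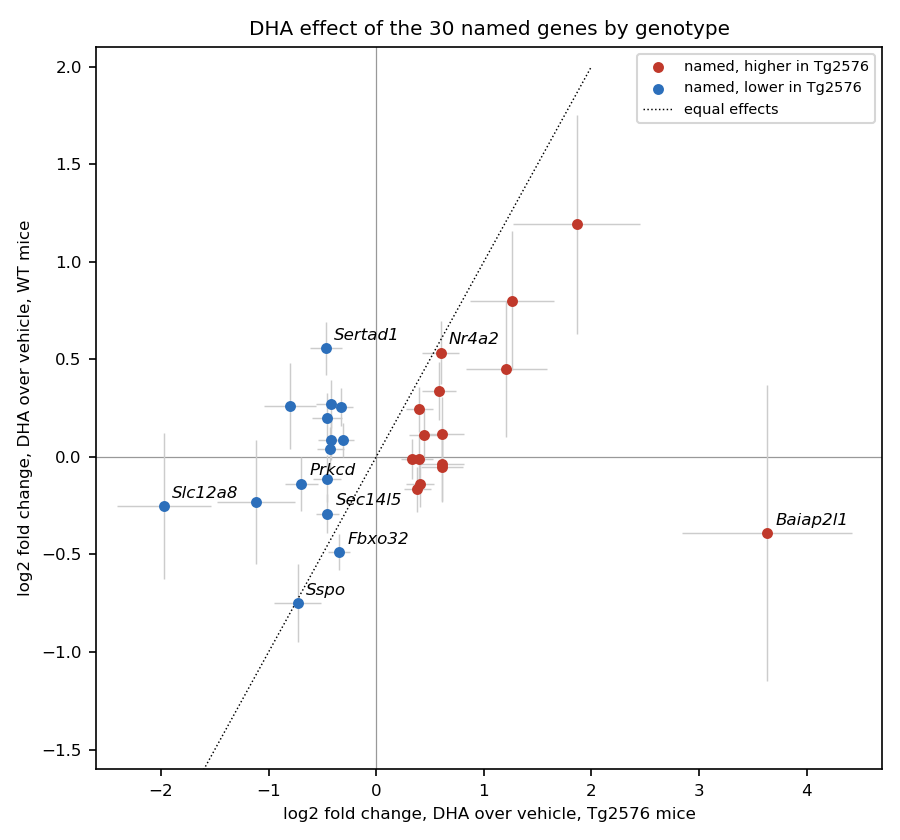
Log2 fold change of DHA over vehicle in WT mice (vertical axis) against that in Tg2576 mice (horizontal axis) for the 30 named genes, with bars of 1 standard error and a dotted line where both effects are equal. Nr4a2, Sspo, Sec14l5 and Fbxo32 lie on the same side of 0 in both genotypes, whereas Sertad1 lies above 0 in WT mice and below 0 in Tg2576 mice.

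In the lists of fatty acid handling, Nr4a2 was the 1 gene with a p under 0.01. The share over all genes tested was 0.353%. Lists with 0 such genes, here and below, are near that share and are not a result about their members. Of 28 genes of polyunsaturated fatty acid synthesis and activation, 0 had a p under 0.01, 15 had a positive sign and the median log2 fold change was 0.02. Fads2, the first desaturase of DHA synthesis, was at 221, 226 and 219 CPM with DHA and at 177, 209, 197 and 195 CPM with vehicle. The groups did not overlap, but the difference was small (0.19 ± 0.078, exact permutation p = 0.0571). In the list of fatty acid and oxysterol receptors, Nr4a2 rose and the other 21 genes did not pass, with a median of 0.09. PPAR targets and fatty acid oxidation (29 genes, median 0.09), fatty acid synthesis and SREBP1 targets (17 genes, 0.05), liver X receptor targets (16 genes, -0.01), fatty acid uptake (17 genes, -0.0023) and eicosanoid or docosanoid enzymes and receptors (38 genes, -0.0047) had 0 genes at p under 0.01. Among 28 genes of cholesterol synthesis and SREBP2 targets, 24 had a positive sign, where 49.1% of all genes did, and none passed. Their median was 0.08, with a range of 0.05 to 0.16 without single mice. Its 2 genes with the lowest p were Stard4, a sterol carrier, with 31.7, 43.7 and 40.2 CPM against 26.7, 32.0, 30.3 and 31.5 CPM (0.35 ± 0.16), and Idi1, an isomerase of the sterol route (0.55 ± 0.25). Apod, an apolipoprotein D gene, was at 837 CPM in vehicle mouse 1 and at 161 to 274 CPM in the other 6 mice.

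The medians of the synaptic lists were close to 0 with all mice. They were higher without DHA mouse 1 and lower without some other mice. Presynaptic genes (32 tested, 22 positive, median 0.04) and postsynaptic genes (35 tested, 18 positive, median 0.01) had no gene at p under 0.01, and the summed presynaptic CPM was 17672 to 19350 with DHA and 17712 to 18685 with vehicle. Without DHA mouse 1 the presynaptic median was 0.08 and the postsynaptic one 0.13, with 24 of the 35 postsynaptic genes positive. The lowest medians when single mice were left out were 0.0079 and -0.034. The postsynaptic median was negative without DHA mouse 2, DHA mouse 3 or vehicle mouse 3. Dlg4 and Dbn1, postsynaptic genes that the study singles out, had log2 fold changes of -0.11 ± 0.10 and -0.06 ± 0.10. Of 25 genes of GABA synapses 0 passed. Their median of 0.04 became 0.13 without DHA mouse 1, with 19 positive, and -0.00011 without DHA mouse 2. Of 24 glutamate receptor genes, Grik3 rose, 19 were positive and the median was 0.08, with a lowest value of 0.016 without single mice. Without DHA mouse 1 the median was 0.16, Grik3 lost its call, and Grin3a, Grin2b and Grm5, named after their values were seen, had a p under 0.01. Grin3a, an NMDA receptor subunit, was at 34.2, 54.0 and 60.9 CPM with DHA and 37.9, 42.5, 34.8 and 26.7 CPM with vehicle. With all mice its difference did not pass (0.49 ± 0.17). Homer2, a scaffold of metabotropic receptors, was at 52.0, 57.5 and 63.6 CPM with DHA against 50, 46.5, 45.0 and 36.1 CPM with vehicle (0.38 ± 0.15). Axon and neurite growth genes had 31 of 36 members with a positive sign and a median of 0.13. None of these 36 genes passed, and 6 did without DHA mouse 1 (median 0.23). The lowest median of this list without single mice was 0.09. Their sum was 8150 CPM in DHA mouse 1, below 3 of the 4 vehicle mice (8056 to 9102 CPM), and 9825 and 10133 CPM in DHA mice 2 and 3. In WT mice the median of this list was -0.13.

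Immediate early and activity-regulated genes, which neurons induce upon firing, were mostly negative in Tg2576 mice, with 28 of 39 genes of negative sign and a median of -0.17. Only Nr4a2 rose and only Sertad1 fell at p under 0.01. Fos, Arc and Npas4, named after their values were seen, had log2 fold changes of -0.27, -0.67 and -0.59 without passing. In WT mice the median of these 39 genes was 0.18. The Tg2576 median rested on single mice, with a range of -0.24 to 0.04 when each mouse was left out. Among growth factors and their receptors, Vegfa rose and the other 30 genes did not pass (median 0.10). Bdnf, which the study singles out, was among those that did not pass (0.17 ± 0.17).

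Among amyloid and glial genes, Mobp was the 1 gene with a p under 0.01, where 0.353% of all genes tested had one. App was at 2286, 2553 and 2787 CPM with DHA and at 2615, 2365, 2313 and 2076 CPM with vehicle (0.12 ± 0.091, exact permutation p = 0.4), and the 27 genes of amyloid processing and clearance had a median of 0.01. Plaque-associated microglial genes (30 genes, median 0.03) did not pass, nor did 18 homeostatic microglial genes, of which 16 were positive (median 0.18). The homeostatic genes summed to 595 to 718 CPM with DHA and 473 to 679 CPM with vehicle. Trem2 was at 37.6, 13.6 and 31.6 CPM with DHA and 8.86, 33.5, 41.6 and 33.3 CPM with vehicle, so that DHA mouse 2 and vehicle mouse 1 were both low. Its sign, like that of the lysosomal gene Cd68, changed with the mice included. Gfap, the astrocyte filament gene, was at 970, 1078 and 1686 CPM against 830, 1283, 1465 and 1135 CPM (0.08 ± 0.19), and reactive astrocyte genes had a median of -0.02. Il1b had 0.504 to 0.709 CPM with DHA and 0.430 to 0.935 CPM with vehicle, and Tnf had 2 to 12 reads in the 7 mice and was below the filter. Bulk RNA cannot tell fewer cells of a type from less RNA per cell.

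Interferon-stimulated genes were positive in 22 of 29 cases (median 0.19) and genes of MHC and antigen presentation negative in 19 of 23 (median -0.09), in both cases with no gene at p under 0.01. Mx1 and Bst2 had the lowest p of the first list. Bst2 was at 8.85, 9.31 and 11.7 CPM with DHA and at 5.11, 6.56, 7.48 and 6.22 CPM with vehicle, without overlap (0.65 ± 0.30). Myelin genes other than Mobp summed to 6187 to 8002 CPM with DHA and 6578 to 9007 CPM with vehicle. With Mobp the sums were 6820 to 8911 CPM and 7536 to 10140 CPM, so they overlapped either way. The list median was -0.05, with a range of -0.27 to 0.09 when single mice were left out. Mbp, the basic protein of myelin, was named after its values were seen and was at 3723, 2843 and 3327 CPM with DHA and 3405, 3843, 4566 and 4808 CPM with vehicle (-0.33 ± 0.14, not passing).

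In the lists of stress genes, vehicle mouse 1 often stood apart. Of 23 tested genes of the glucocorticoid response and atrogenes, 19 had a negative sign and Fbxo32 fell, with a median of -0.13. The summed level was 2131 CPM in vehicle mouse 1, 1225 to 1364 CPM in the other vehicle mice and 1193 to 1409 CPM in the DHA mice, and the list median ranged from -0.32 to 0.10 without single mice. Mt2, a metallothionein, was at 18.7, 12.3 and 18.3 CPM with DHA and at 27.2, 22, 19.4 and 23.5 CPM with vehicle, without overlap (-0.49 ± 0.18). Chaperones and genes of the unfolded protein response were positive in 26 of 34 cases (median 0.12) and did not pass. Hspa5, the chaperone BiP, was at 310, 211 and 283 CPM with DHA and at 158, 215, 208 and 210 CPM with vehicle (0.44 ± 0.16). DHA mouse 2 was at the level of 3 vehicle mice. The 12 mitochondrially encoded genes were negative in 11 cases (median -0.11), while vehicle mouse 1 had the lowest sum of the 7 mice, 16585 CPM against 20340 to 25318 CPM. Antioxidant genes (35, median -0.03), clock genes (20, median -0.0027) and integrin, laminin and adhesion genes (37, median 0.01) had 0 genes at p under 0.01. Over all genes tested the share was 0.353%.

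**Figure D4:**
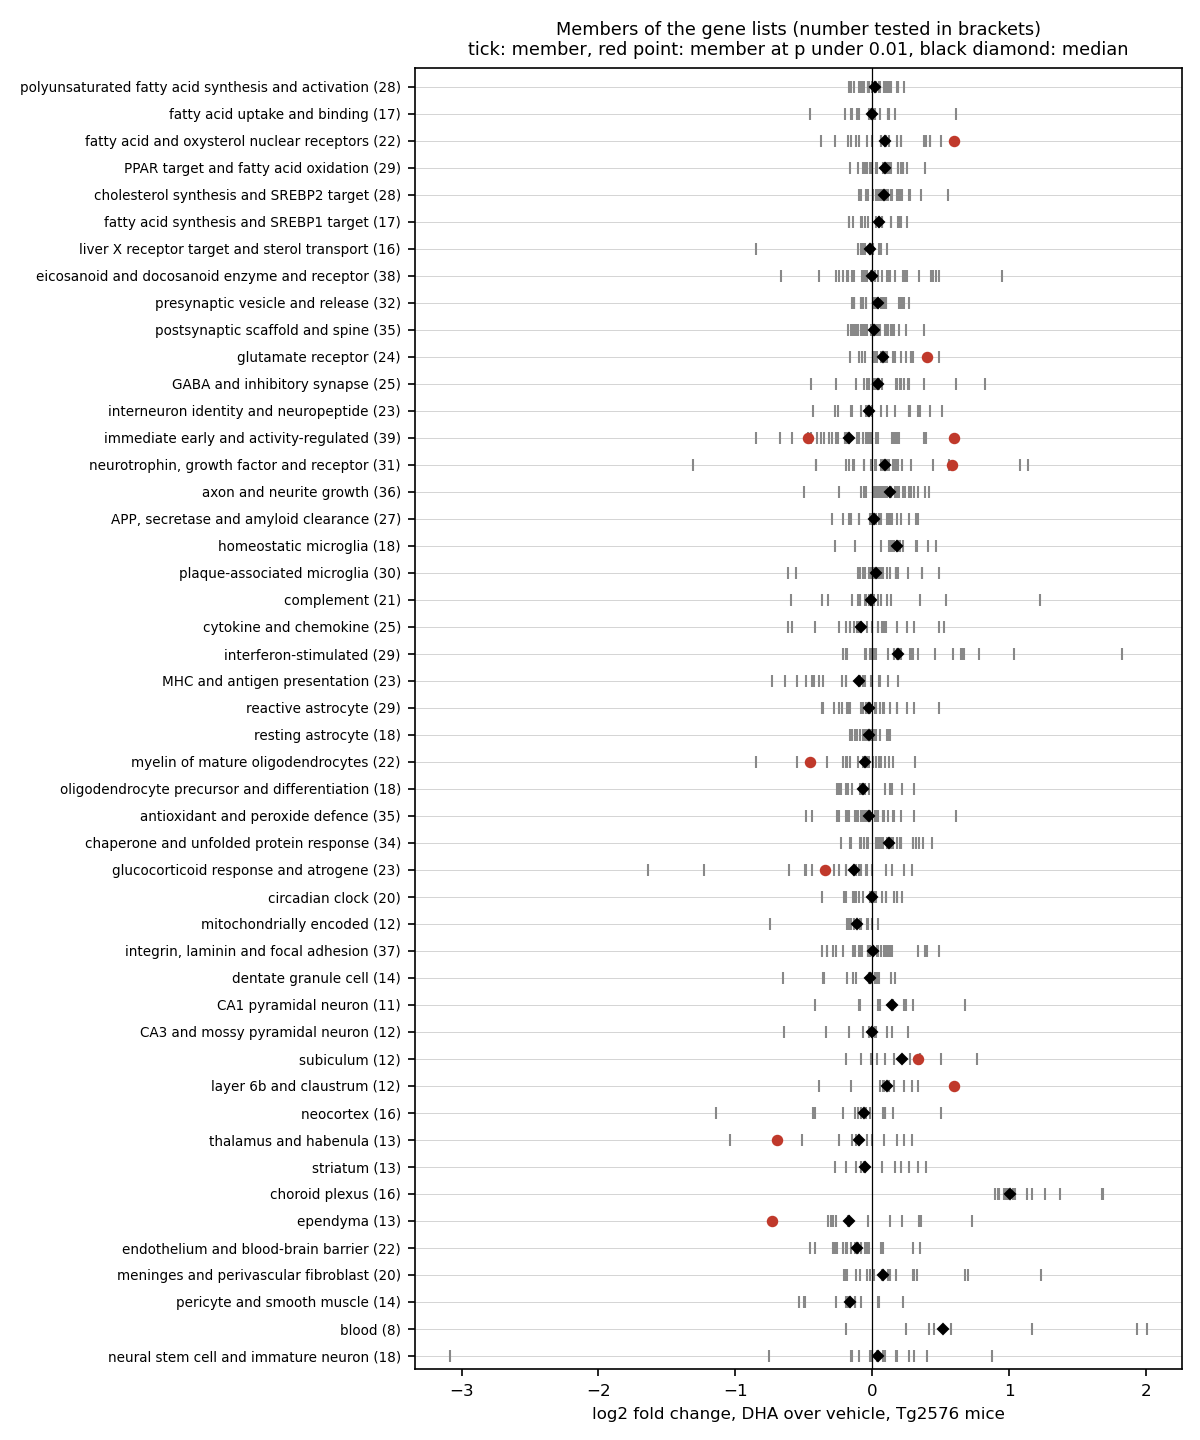
Log2 fold change of DHA over vehicle in Tg2576 mice (horizontal axis) for the tested members of the 48 gene lists, with a tick for each gene, a red point for a gene at p under 0.01 and a black diamond for the list median. Most medians lie near 0, and the choroid plexus markers all lie to the right, with a median of 1.01.

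Markers of tissue around the hippocampus varied between mice. All 16 markers of the choroid plexus were positive, with a median of 1.01, and 0 of them passed. The median was 1.90 without vehicle mouse 2 and 0.69 without vehicle mouse 4, the extremes when single mice were left out. Their sum was 6538, 4283 and 4473 CPM in the DHA mice and 1795, 4492, 725 and 328 CPM in the vehicle mice. All DHA mice were high, and vehicle mouse 2 was as high as they were. Ttr, the transthyretin gene of this tissue, made up the larger part of the sum in each of these mice except vehicle mouse 4, with 4964, 3146 and 2908 CPM against 1075, 2970.2, 401 and 117 CPM (1.69 ± 1.72, exact permutation p = 0.114). The WT mice ranged from 224 to 7117 CPM with DHA and 330.0 to 4481 CPM with vehicle for the same markers. Sspo, which fell, is listed among the ependymal markers, and the other 12 of these summed to 50.4 to 69.1 CPM with DHA and 40.5 to 74.7 CPM with vehicle. With Sspo the sums were 54.1 to 72.6 CPM and 45.1 to 81.1 CPM, so they overlapped either way. Vegfa is made by the choroid plexus as well as by neurons and astrocytes, and the part of choroid plexus in its rise was not tested.

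Subicular markers had a median of 0.22 and layer 6b and claustrum markers one of 0.10, with Tle4 and Nr4a2 as the genes that rose. The sums overlapped with these genes, at 506 to 622 CPM against 456 to 552 CPM for subiculum. For layer 6b and claustrum they were 583 to 916 CPM against 624 to 876 CPM. Without these genes they overlapped as well, at 449 to 554 CPM against 410 to 503 CPM and 523 to 842 CPM against 577 to 834 CPM. Neither list had another gene at p under 0.01, and the part of dissection in the rise of Tle4 and Nr4a2 was not tested. Endothelial markers were negative in 18 of 22 cases (median -0.11) and pericyte markers in 11 of 14 (median -0.16), and 0 genes of either list passed. Blood markers were positive in 7 of 8 cases (median 0.51), with 737, 309 and 164 CPM in the DHA mice and 173 to 386 CPM in the vehicle mice, so that DHA mouse 1 stood out. Without it 3 of the 8 were positive and the median was -0.19. Dentate granule cells (median -0.02), CA1 neurons (0.14), CA3 neurons (0.00048) and immature neurons (0.04) had 0 genes at p under 0.01, where 0.353% of all genes had one. The same held for neocortical (-0.06) and striatal markers (-0.05), interneurons (-0.02), complement (-0.0097), cytokines (-0.08), resting astrocytes (-0.03) and oligodendrocyte precursors (-0.07). Meningeal markers also had 0 such genes, and their median of 0.08 turned on single mice, at -0.57 without DHA mouse 2, 0.66 without vehicle mouse 2 and 0.41 without DHA mouse 1, where all 20 were positive. Their sums were 508, 1351 and 519.8 CPM in the DHA mice and 828, 1274, 707 and 339 CPM in the vehicle mice, which overlap. Of the 48 lists, 22 kept the sign of the median without each of the 7 mice, and 26 changed it without at least 1.

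**Figure D5:**
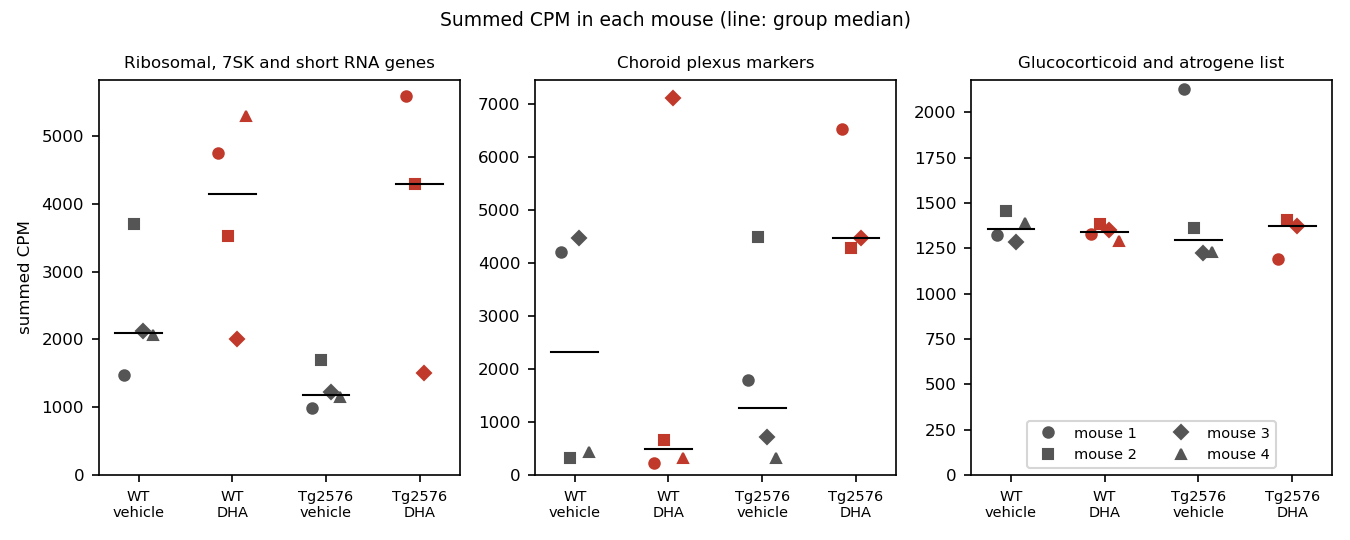
Summed CPM in each mouse of the 4 groups for the 8 ribosomal, 7SK and short RNA genes (left), the 16 choroid plexus markers (middle) and the glucocorticoid and atrogene list (right), with a line at the group median. DHA mouse 1 has the highest Tg2576 sum in the left and middle panels, and vehicle mouse 1 stands apart at 2131 CPM on the right.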

How the data were processed

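Total RNA of the hippocampus was sequenced from 15 mice, and the 7 Tg2576 mice (3 DHA, 4 vehicle) form the comparison. The authors deposited raw counts of reads per gene, 1 file per mouse, made per the file headers and the submitters' processing notes with FastQC 0.11.8, STAR 2.6.1c and featureCounts 1.6.0 on exons of GENCODE M25 (GRCm38), without a strand option. Reads from a gene and an antisense partner are thus not told apart. Of the counts from 1 to 20, 79.2% were even, as when both ends of a fragment are counted. The labels and the study's methods name different library kits, so the kit is not described here. Symbols were matched for 55141 of 55401 genes.

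Genes that passed filterByExpr (minimum count 10) were fitted for all 15 mice with edgeR 4.0.16 in R 4.3.3 (TMM scaling, robust quasi-likelihood test, 1 coefficient per group, 11 residual degrees of freedom), with Benjamini-Hochberg adjustment over 19536 genes, and called at an unadjusted p under 0.01. The common biological coefficient of variation was 20.1%. Levels are CPM after TMM scaling. Log2 CPM used a prior count of 2 in the exact permutation test, which has 35 assignments. Named genes were up to 15 in each direction with the lowest p among called genes with a mean of at least 1 CPM and no clone name, the genes the study singles out, and, from each of 48 gene lists, the called members or else at most the 2 with the lowest p. The members and lists were chosen with earlier results of these data known. Alternatives were DESeq2 1.42.0, limma-voom (limma 3.58.1), other filters and scaling, 1 surrogate variable (sva 3.50.0), a replicate block and leaving out each Tg2576 mouse. The labels do not say more of the replicates than that they are separate mice, and p-values measure the spread between them. Sequences were read from RefSeq (GRCm38.p6) and GENCODE M21 transcripts. Figures were drawn with matplotlib 3.10.9.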

Additional observations from a re-analysis of the deposited data

Results flagged for a closer look

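A vehicle mouse far from the other 3 was found in 19 of 163 values tested (11.7%), 14 genes and 5 list sums. The test flags about 1 in 20 of independent, normally distributed values. The values here are not independent, since lists share members with each other and with the named genes. The 11.7% can therefore not be read as an excess. The 3 DHA mice are too few for this test. The values lay in vehicle mouse 1 in 8 cases, in mouse 2 in 4, in mouse 3 in 0 and in mouse 4 in 7. In vehicle mouse 1 they were Apod (837 CPM), Tap1 (18.6 CPM), Hspa5 (158 CPM), Nr1d2 (71.9 CPM) and the summed levels of myelin (7536 CPM), glucocorticoid and atrogene (2131 CPM), circadian clock (1835 CPM) and mitochondrially encoded genes (16585 CPM). In vehicle mouse 2 they were Fads3 (48.9 CPM), Efnb2 (39.1 CPM), Igfbp2 (76.3 CPM) and the presynaptic genes (17712 CPM in sum). In vehicle mouse 4 they were Vegfa (101 CPM), Kazald1 (7.07 CPM), Il1b (0.935 CPM), Sv2b (272 CPM), Gabrg1 (7.80 CPM), Apba3 (32.8 CPM) and Acsbg1 (169.9 CPM).

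A log2 effect of DHA that differed between Tg2576 and WT mice (interaction p under 0.01 in the edgeR test) was found for 13 of the 115 named genes, where 0.829% of all genes passed. It was positive for Baiap2l1 (4.02), Cdh20 (0.55), Cdh10 (0.55) and Cd55 (1.0), and negative for Slc12a8 (-1.72), Gmppa (-0.51), Kazald1 (-1.06), Jade3 (-0.65), Lrrc8a (-0.69), Sertad1 (-1.02), Rnpepl1 (-0.39), Cd47 (-0.58) and Apba3 (-0.64). Most of these genes were named for their low p in Tg2576 mice, and 0 had an adjusted p under 0.05. Cd55, a complement inhibitor, and Apba3, an adaptor that binds the amyloid precursor protein, had no call in Tg2576 mice (0.54 ± 0.22 and -0.22 ± 0.11).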

How the results depend on the processing

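The 69 genes with a p under 0.01 became 126 with DESeq2, 126 with all low genes kept, 29 when only the 2 Tg2576 groups were fitted and 137 with 1 surrogate variable, and 53 (without DHA mouse 3) to 312 (without DHA mouse 1) when 1 Tg2576 mouse was left out. An adjusted p under 0.05 was reached by 0 to 1 genes in these last fits and by 0 genes elsewhere. The share of higher genes was 44.9% and moved to 56.3% without a filter, 55.2% with 2 groups, 56.7% without DHA mouse 1 and 25% without DHA mouse 2. Of the 69 genes, 68 remained with DESeq2, 49 with limma-voom, 21 with 2 groups and 17 without DHA mouse 2. The cause of these differences was not tested.

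The groups share replicate numbers, and the labels do not say whether these pair the mice. Deviations from the group mean in same-numbered Tg2576 mice had r = -0.244, -0.015 and 0.012 for numbers 1 to 3. Mice with unlike numbers had r from -0.147 to 0.227. So few pairs cannot decide whether the numbers pair the mice. With the replicate block, 54 genes had a p under 0.01, 35 of them among the 69.

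Among the named genes the sign changed for some genes that did not pass. Trem2 (-0.09) became 0.11 with the replicate block and 0.21 with 1 surrogate variable, and -0.39 to 0.24 without single mice. Cd68 (-0.02) became 0.072 and 0.13 with these settings and -0.19 to 0.16 without single mice. Without single mice Il1b (0.04) ranged from -0.12 to 0.39, Gfap (0.08) from -0.20 to 0.23, Dbn1 (-0.06) from -0.12 to 0.023 (positive without vehicle mouse 4) and Tap1 (-0.48) from -0.67 to 0.013 (positive without vehicle mouse 1). Over all named genes and alternative settings, 139 values lost a p under 0.01, 44 gained one and 17 changed sign. The sign changes given above are among these 17. Depth limits Slc12a8 (8 to 45 reads per mouse) and the 18 called genes under 1 CPM.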
